A study of Mus musculus with 12 samples.

Results

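The proneural basic helix-loop-helix (bHLH) genes Neurog1, Neurod1, Neurod2, Neurod4, Neurod6, Nhlh1 and Nhlh2 and the early B-cell factor genes Ebf1, Ebf2 and Ebf3 were followed in single cells of the mouse cochlea from E14.5 to P3, embryonic (E) and postnatal (P) days. They were taken by name from the count table and are 10 of its 24489 genes. Reporter-positive (TOM+) cells were sorted from the cochlea into plates and read by Smart-seq2, which covers the whole transcript of polyadenylated RNA. The stages were E14.5 (2 plates), E15.5 (2 plates), E16.5 (3 plates), E17.5 (1 plate), E18.5 (2 plates) and P3 (2 plates), and a plate, filled from several pooled animals, was the unit of replication. The labels give the genotype PVcre;Ai14 for 11 plates, in which the parvalbumin driver switches on the red reporter Ai14 in every cell with past or present Cre. E14.5 plate 2 is labelled TrkCcre, a driver of the Ntrk3 gene, whereas the methods of the study name that driver for all E14.5 cells. By either source the driver differs between E14.5 and the later stages, for 1 plate or for both. Stage and driver therefore cannot be fully told apart in any comparison with E14.5. No mutation or treatment was compared, and nothing in the labels says that plates of 1 stage came from separate litters, so p-values measure the spread between plates.

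Proneural bHLH proteins pair with widely expressed E proteins, bind the E-box sequence CANNTG and turn dividing progenitors into neurons. In the inner ear Neurog1 commits the progenitors that become spiral ganglion neurons (SGNs), and Neurod1, which acts after it, is needed for these neurons to survive and to find their place. Nhlh1 and Nhlh2 mark newborn neurons, and the Ebf proteins act after the proneural step in the migration and differentiation of many neurons. Neurod2 and Neurod6 are best known from neurons of the forebrain and Neurod4 from the retina.

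Cells were clustered without the 10 genes and without the genes of their pathways, and were named from marker genes. The 4226 cells kept were 2311 SGN-like, 1170 glia-like, 553 otic mesenchyme-like (OM-like), 74 hair cell-like (HC-like) and 118 other cells. The SGN-like cells numbered 130 at E14.5, 781 at E16.5, 70 at E17.5, 661 at E18.5 and 501 at P3, with the remainder at E15.5. Summed over 12 neuronal markers they held 14000 to 18300 CPM (counts scaled to 1000000 per plate and class), against 535 to 747 in glia-like and 197 to 351 in OM-like cells. The median count of an SGN-like cell ran from 228326 to 1092427 over the plates. The plates came in 4 series named in the labels, and E18.5 (SS2_19) and P3 (SS2_15) were each the only stage of their series, so these stages and their series cannot be told apart. E14.5, E15.5, E17.5 and E16.5 plate 3 shared the series SS2_20, and comparisons among them were also run within it. These keep the difference in driver at E14.5. Summed over 10 glial markers, SGN-like cells held 40.1 to 61.3 CPM at E14.5, 39.7 to 185 at E15.5, 566 to 1010 at E16.5, 34.3 at E17.5, 3890 to 4050 at E18.5 and 2960 to 3360 at P3, with Cmtm5 at 0 at E14.5 and E17.5, and their part in the stage differences was not tested beyond the values given beside them.

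The promoters of Neurod1, Nhlh1 and Nhlh2, bHLH genes that were lower at E15.5 than at E14.5, are shown beside that of Ebf3, which kept 37.7% of its E14.5 level at E18.5, the largest share among the 9 genes highest at E14.5. Each line holds 250 bases before and 50 after the annotated start (RefSeq, build GRCm38.p6), read 5′ to 3′ on the strand of the gene, and capitals mark each CANNTG, searched on both strands at once because it reads the same on either.
Neurod1: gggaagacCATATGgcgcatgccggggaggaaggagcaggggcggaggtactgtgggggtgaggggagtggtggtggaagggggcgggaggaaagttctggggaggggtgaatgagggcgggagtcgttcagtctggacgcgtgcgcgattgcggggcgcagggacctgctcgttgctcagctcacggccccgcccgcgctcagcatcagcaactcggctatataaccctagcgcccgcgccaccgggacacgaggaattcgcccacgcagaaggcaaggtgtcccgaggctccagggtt
Nhlh1: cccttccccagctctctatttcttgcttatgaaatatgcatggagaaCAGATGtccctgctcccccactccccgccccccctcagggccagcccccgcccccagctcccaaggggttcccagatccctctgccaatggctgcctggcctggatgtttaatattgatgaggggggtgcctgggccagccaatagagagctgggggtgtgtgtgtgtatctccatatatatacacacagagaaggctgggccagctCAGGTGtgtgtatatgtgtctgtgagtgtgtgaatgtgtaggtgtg
Nhlh2: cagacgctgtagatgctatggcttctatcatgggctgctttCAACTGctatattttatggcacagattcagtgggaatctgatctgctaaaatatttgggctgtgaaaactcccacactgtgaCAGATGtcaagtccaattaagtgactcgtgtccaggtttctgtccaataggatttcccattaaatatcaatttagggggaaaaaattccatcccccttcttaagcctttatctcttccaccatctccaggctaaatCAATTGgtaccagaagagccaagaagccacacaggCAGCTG
Ebf3: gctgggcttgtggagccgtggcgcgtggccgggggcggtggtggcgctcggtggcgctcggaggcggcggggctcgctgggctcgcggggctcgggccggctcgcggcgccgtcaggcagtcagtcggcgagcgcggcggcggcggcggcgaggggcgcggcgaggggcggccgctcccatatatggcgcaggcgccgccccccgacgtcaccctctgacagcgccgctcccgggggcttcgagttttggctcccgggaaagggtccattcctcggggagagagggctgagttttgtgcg
The windows lie at chr2:79456587-79456886 (minus strand, Neurod1), chr1:172057547-172057846 (minus strand, Nhlh1), chr3:102009895-102010194 (plus strand, Nhlh2) and chr7:137314396-137314695 (minus strand, Ebf3). CANNTG occurred 1 time in the window of Neurod1, 2 times in that of Nhlh1, 4 times in that of Nhlh2 and 0 times in that of Ebf3. Windows were found for 9 of the 10 genes, 11 in all, and 8 of the 11 held at least 1 CANNTG, against 72.3% of 32851 promoter windows of the same length. The form CAGATG or its reverse CATCTG, which the Neurod and Neurog proteins prefer, was in 3 windows (17.2% of all promoters), and CAGCTG was in 2 (16.3%). CCCNNGGG, the core that Ebf proteins bind, was in 3 (13.7%). These are matches of letters and not sites of binding.

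Neurod1 had the highest stage mean of the 10 at E14.5 and was among the genes that fell first. The gene lies at chr2:79452521-79456751 on the minus strand (mm10, GENCODE annotation, as for the genes that follow) and overlaps Cerkl on the same strand. Its level in SGN-like cells, in CPM scaled by the trimmed mean of M-values (TMM), was 673 and 335 on the plates of E14.5, 36.7 and 49.1 at E15.5, 15.7, 15.8 and 35.5 at E16.5, 13.5 at E17.5, 13.5 and 12.7 at E18.5, and 7.32 and 7.55 at P3. The E14.5 plates stood above all later plates, and the higher one was the plate labelled PVcre;Ai14. The lower one lay below both Ebf1 plates of that stage (436 and 344 CPM). From E14.5 to E15.5 the log2 fold change was -3.55 ± 0.43 (SE; edgeR quasi-likelihood test, adjusted p = 0.00175). By P3 it was -6.08 ± 0.49 (edgeR, adjusted p = 3.95e-06).

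Nhlh1 (chr1:172052292-172057573, minus strand) had a lower level than Neurod1 throughout. It stood at 62.9 and 34.2 CPM at E14.5, 3.12 and 7.89 at E15.5, 0.358, 0.274 and 1.08 at E16.5, 0.807 at E17.5, 0.257 and 0.284 at E18.5, and 0.0197 and 0 at P3. Its close relative Nhlh2 (chr3:102010076-102015492, plus strand) stepped down at every stage without reaching 0. It read 264.6 and 168.2 CPM at E14.5, 84.7 and 72.2 at E15.5, 56.2, 52.4 and 67.4 at E16.5, 34.9 at E17.5, 19.6 and 20.0 at E18.5, and 10.1 and 7.52 at P3. For Nhlh2 no plate overlapped a plate of another stage. Against E14.5, Nhlh1 changed by -3.14 ± 0.74 at E15.5 (edgeR, adjusted p = 0.0336) and by -11.77 ± 1.12 at P3 (adjusted p = 1.29e-05). Nhlh2 changed by -1.46 ± 0.23 at E15.5 (edgeR, adjusted p = 0.00565) and by -4.61 ± 0.26 at P3 (adjusted p = 4.78e-07).

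The 3 Ebf genes, given side by side, kept unequal shares of their E14.5 level. Ebf1 (chr11:44617317-45008091, plus strand) declined slowly, from 436 and 344 CPM at E14.5 through 290 and 268 at E15.5, 195, 202 and 155 at E16.5, 138 at E17.5 and 109 and 114 at E18.5 to 80.6 and 77.0 at P3. Ebf2 (chr14:67233292-67430918, plus strand) had lost most of its level a day later, with 106 and 53.8 CPM at E14.5, 5.93 and 7.29 at E15.5, 3.88, 3.89 and 1.31 at E16.5, 1.05 at E17.5, 0.656 and 0.346 at E18.5, and 0.00393 and 0 at P3. Ebf3 (chr7:137193673-137314445, minus strand) was lower at E15.5 than at E14.5, lay between 25.1 and 39.5 CPM up to E17.5 and was lowest at P3, with 58.0 and 50.5 CPM at E14.5, 25.1 and 34.5 at E15.5, 36.7, 36.4 and 29.8 at E16.5, 39.5 at E17.5, 22.9 and 18.1 at E18.5, and 13.9 and 8.57 at P3. The Ebf1 plates did not overlap between stages, whereas the Ebf3 plates of E15.5 and E16.5 did, and the E17.5 plate lay above both. From E14.5 to P3 the log2 fold change was -2.31 ± 0.15 for Ebf1 (edgeR, adjusted p = 1.26e-06) and -2.27 ± 0.27 for Ebf3 (adjusted p = 6.37e-05). Ebf2 had 1 count left at P3, and its E14.5 level was 37400 times that of P3 (95% counting interval 6710 to 1480000). Ebf2 and Ebf3 overlap antisense genes of the table (Gm6878 and 4930438E09Rik, and Gm10578), and the sources used here do not give the strand setting of the counting, so reads of those genes cannot be told apart from theirs.

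Neurod2 and Neurod6 were low at E14.5 and came mostly from few cells later. Neurod2 (chr11:98325415-98329648, minus strand) read 13.1 and 12.4 CPM at E14.5, 2.16 and 8.54 at E15.5, 1.23, 1.37 and 2.61 at E16.5, 0.186 at E17.5, 0.114 and 0.159 at E18.5, and 0 on both P3 plates. Neurod6 (chr6:55677822-55681263, minus strand) read 35.8 and 28.4 CPM at E14.5, 4.17 and 14.6 at E15.5, 1.48, 3.31 and 2.73 at E16.5, 0.062 at E17.5, 0.903 and 0.554 at E18.5, and 0.0865 and 0 at P3. Their E15.5 plates differed from each other by more than those of Nhlh1 did. Neurod2 was at least 1960-fold lower at P3 than at E14.5 (3 counts over the stage as floor).

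Neurog1 and Neurod4 were close to the limit of detection throughout. Neurog1 (chr13:56250478-56252163, minus strand), the earliest of the otic proneural genes, read 1.18 and 0 CPM at E14.5 and 0.301 and 0.0923 at E15.5, was at 0 on all 6 plates from E16.5 to E18.5, and read 0.00786 and 0 at P3. These were 21, 8, 0, 0, 0 and 2 counts per stage. The 3-count floor puts it at least 53.1-fold lower at E16.5 than at E14.5. Neurod4 (chr10:130268152-130280240, minus strand) was at 0 at E14.5, E15.5, E17.5 and P3, and had 47 counts at E16.5 (0.0874, 0.299 and 0 CPM) and 11 at E18.5 (0 and 0.0761 CPM).

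**Figure D1:**
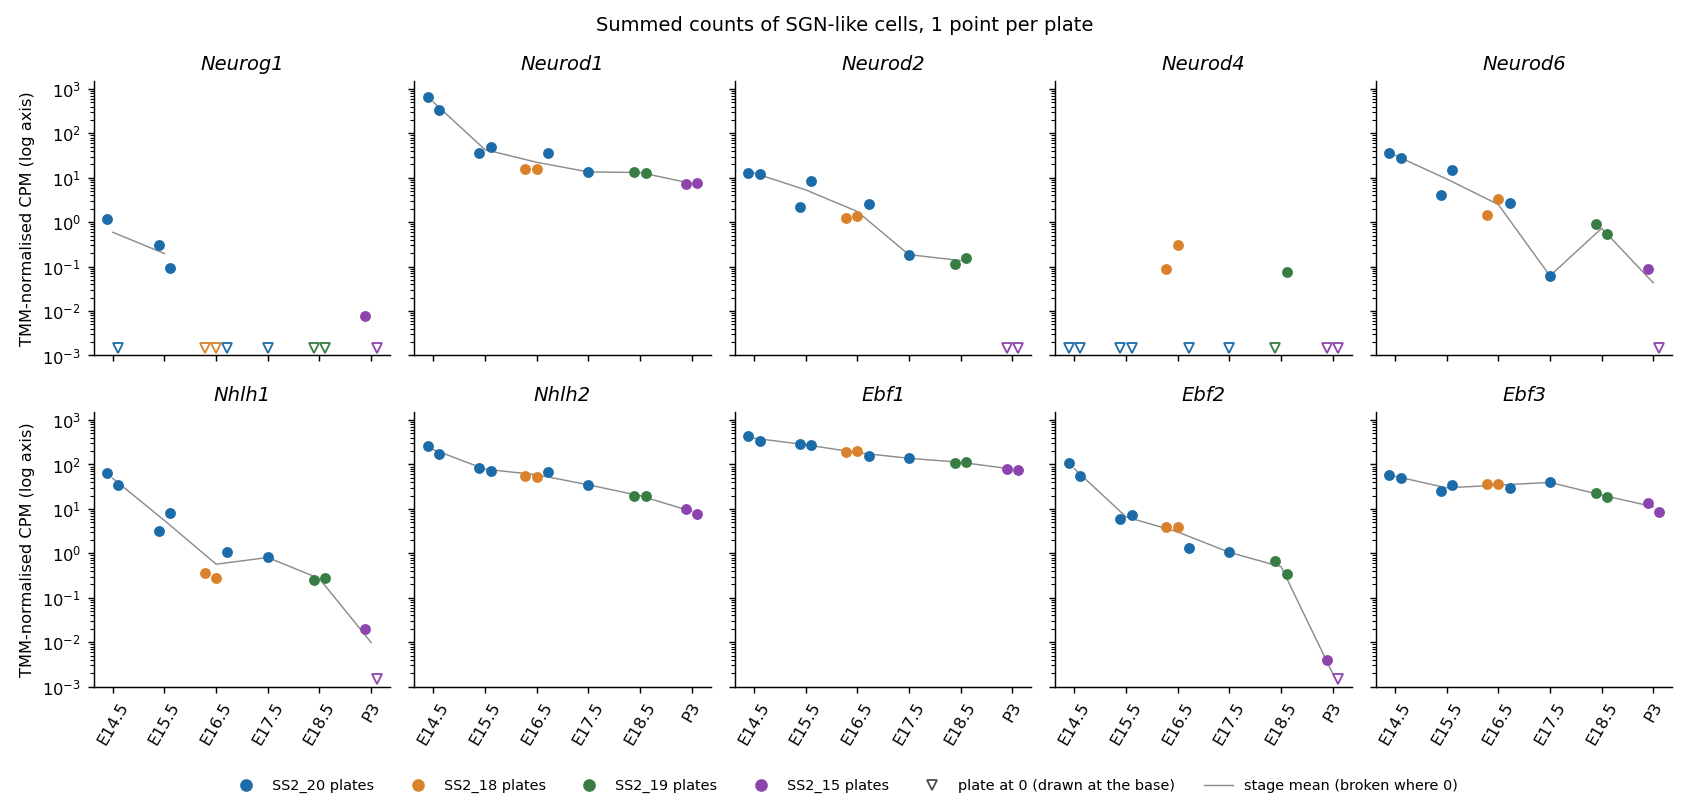
Level of each of the 10 genes in SGN-like cells by plate, in TMM-scaled CPM on a log axis, against stage. Points are plates coloured by plate series, open triangles at the base are plates at 0, and the grey line joins the stage means where they are above 0. Over all SGN-like cells, Neurod1, Nhlh1 and Ebf2 drop most between E14.5 and E15.5, and Ebf1 and Ebf3 stay above 8 CPM on every plate. Without the cells that have no Isl1 and no Gata3 count, Neurod6 keeps 4.12% and Neurod2 8.36% at E15.5 (CPM without TMM scaling). Ebf2 then keeps 8.25%, Neurod1 8.92% and Nhlh1 11.9%.

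Per kilobase of exon, which allows levels to be compared between genes, Neurod1 led at E14.5 with a mean of 185 CPM per kb. Nhlh2 and Ebf1 followed at 40.0 each, and their plates overlapped. Below them came Nhlh1 (19.7), Neurod6 (14.9), Ebf2 (11.5), Ebf3 (5.88), Neurod2 (4.06) and Neurog1 (0.351). The plates of Nhlh1, Neurod6 and Ebf2 overlapped, so their order among themselves is not resolved. At P3 the order had changed, and Ebf1 led with 8.08 CPM per kb, ahead of Neurod1 (2.72), Nhlh2 (1.63) and Ebf3 (1.22). The P3 plates of Nhlh2 and Ebf3 overlapped, and those of Ebf1 and Neurod1 overlapped with no other gene.

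The order of shut-off was read from the share of the highest stage mean that was left. At E15.5, Ebf2 kept 8.27%, Neurod1 8.51% and Nhlh1 11.3%, and the plates of these 3 overlapped, so their order among themselves is not resolved. Neurod6 (29.3%), Neurog1 (33.3%), Nhlh2 (36.2%) and Neurod2 (41.9%) followed, again with overlapping plates. Ebf3 kept 54.9% and Ebf1 71.5%, and both Ebf1 plates lay above those of every other gene. At E15.5, 7 genes were thus under 50%. The 10% mark was first passed at E15.5 by Neurod1 and Ebf2, at E16.5 by Nhlh1, Neurod6 and Neurog1, at E17.5 by Neurod2 and at E18.5 by Nhlh2. Ebf1 and Ebf3 never passed it, and kept 20.2% and 20.7% at P3, with overlapping plates. Ebf1 was first under 50% at E16.5 and Ebf3 at E18.5, after 63.2% at E16.5 and 72.8% at E17.5. Single plates set several of these stages. Without E14.5 plate 1, Neurod1 kept 12.8% and Ebf2 12.3% at E15.5, so that both were first under 10% at E16.5. Nhlh2 then kept 11.8% at E18.5 and was first under 10% at P3, and Ebf1 kept 53.5% at E16.5. Nhlh1 was already under 10% at E15.5 without E14.5 plate 2 (8.75%) or E15.5 plate 2 (6.43%). Neurod2 kept 67.0% at E15.5 without E15.5 plate 1, Ebf3 kept 46.3% and Neurog1 51.0% at E15.5 without E15.5 plate 2, and Ebf1 kept 50.9% at E16.5 without E16.5 plate 3. The E17.5 value of Neurod2 came from 3 counts of 1 plate. The places of Neurod2 and Neurod6 also hung on few cells. Without the 16 cells with no Isl1 and no Gata3 count, described below, Neurod2 kept 8.36% and Neurod6 4.12% at E15.5. Both were then first under 10% at E15.5. Neurog1 had 21 counts on E14.5 plate 1 and 0 on plate 2, so that without plate 1 its highest stage was E15.5. Neurod4 is left out of this order, since its highest stage mean was 0.129 CPM, at E16.5.

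**Figure D2:**
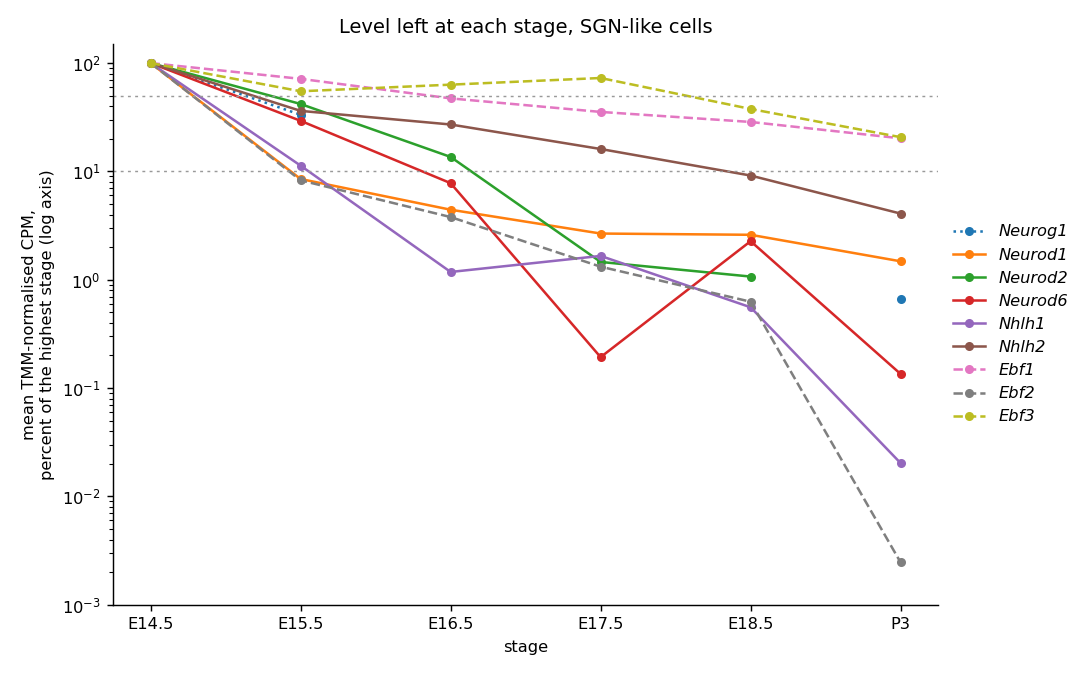
Percent of the highest stage mean left at each stage in SGN-like cells, on a log axis, for the 9 genes other than Neurod4. Dotted lines mark 50% and 10%, and stages at 0 are not drawn. At E15.5 Neurod1 (8.51%) and Ebf2 (8.27%) are already under 10%, while Ebf1 (20.2%) and Ebf3 (20.7%) are above it at P3.

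At E15.5 against E14.5, all 10 genes passed the filter on low counts and 4 of them fell, Neurod1, Nhlh1, Nhlh2 and Ebf2, against 2.78% of 17842 genes tested that were lower. Ebf1 (-0.48 ± 0.15, edgeR adjusted p = 0.0844), Ebf3 (-0.86 ± 0.26, 0.0828), Neurod6 (-1.77 ± 0.85, 0.246) and Neurod2 (-1.25 ± 0.72, 0.328) were lower in their means without passing the test. Neurog1 did not pass either (edgeR adjusted p = 0.736), and Neurod4 had 0 counts at both stages. The median log2 fold change of the 10 was -1.53, and that of all genes was 0.0. DESeq2 called 6 genes lower, the 4 with Ebf1 (adjusted p = 0.0169) and Ebf3 (0.0182), and Ebf3 was also called under the cell filter of the Reporting Summary (-0.96, edgeR adjusted p = 0.0484). Within the SS2_20 plates alone the 4 genes that fell were the same. Nhlh1 lost its call without E14.5 plate 1 (edgeR adjusted p = 0.127), E15.5 plate 1 (0.148) or plate 2 (0.0563), or E18.5 plate 1 (0.0626) or plate 2 (0.0624), and Ebf1 gained one without E14.5 plate 2 (0.034) or E16.5 plate 3 (0.0329).

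At E16.5, 7 genes were lower than at E14.5 (6.22% of all genes), with Ebf1 (-1.08 ± 0.13, edgeR adjusted p = 0.000504), Neurod6 (-3.69 ± 0.78, 0.0107) and Neurod2 (-2.89 ± 0.65, 0.0169) added to the 4 of E15.5. Ebf3 was not among them (-0.66 ± 0.24, edgeR adjusted p = 0.0849), whereas DESeq2 called it lower (-0.69, adjusted p = 0.0301). Within SS2_20 alone 5 remained called, without Neurod2 (adjusted p = 0.393) and Neurod6 (0.102). Neurod2 also lost its call without E16.5 plate 1 (0.0679) or plate 2 (0.0686), and Neurog1 gained one without E14.5 plate 2 (0.04). At E17.5, 7 were lower than at E14.5 (5.17% of all genes), and Ebf3 was not (-0.46 ± 0.33, edgeR adjusted p = 0.414). E17.5 had 1 plate, which the fit takes to vary like the plates of the other stages, so stage and plate cannot be told apart in any comparison with it. With the more glial cells of each plate left out, Neurod2 lost its call at E16.5 with a log2 fold change near that over all cells (-2.84, edgeR adjusted p = 0.249), and Neurod2 and Neurod6, with 3 and 1 counts in all cells of E17.5, lost theirs at that stage (0.178 and 0.0928).

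At E18.5, 8 genes were lower than at E14.5 (9.61% of all genes), and Ebf3 was now one of them (-1.41 ± 0.26, edgeR adjusted p = 0.00341). The median log2 fold change of the 10 was -5.36, also with Neurog1 at its bound of at least 51.1-fold, and that of all genes was 0.1. With the SGN-like cells above their plate's median in glial markers left out, 7 of the 8 kept the call and Neurod2 lost it with a log2 fold change of -6.14 (adjusted p = 0.0631), against -6.52 over all cells. Neurog1 gained a call without E14.5 plate 2 (0.0413). At P3 the same 8 were lower than at E14.5 (20.6% of all genes), and the Neurod6 counts of P3 all came from plate 1.

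Between neighbouring stages less was resolved. From E15.5 to E16.5, Nhlh1 (-3.47 ± 0.68, edgeR adjusted p = 0.0289) and Ebf1 (-0.60 ± 0.13, 0.0477) were lower (0.628% of all genes). Both calls depended on single plates: Nhlh1 lost its call without E15.5 plate 2 (0.14), E16.5 plate 1 (0.128) or plate 2 (0.122), or E18.5 plate 1 (0.0613) or plate 2 (0.0611). Ebf1 lost its call without E15.5 plate 1 (0.189) or plate 2 (0.123), E16.5 plate 1 (0.108) or plate 2 (0.0844), or any plate of E18.5 or P3 (0.0657 to 0.0862). Neurod1 gained a call without E16.5 plate 3 (-1.44, 0.0176). Within SS2_20 alone 0 genes were called at this step. From E16.5 to E17.5 and from E17.5 to E18.5, 0 genes were called by edgeR (0.0785% and 0.667% of all genes were lower), with 4 and 2 at an unadjusted p under 0.05, and DESeq2 called Neurod6 at the first step and Ebf3 at the second.

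From E18.5 to P3, 7 genes were lower (12.1% of all genes). Nhlh2 changed by -1.17 ± 0.23 (edgeR adjusted p = 0.00361), Ebf3 by -0.86 ± 0.26 (0.0333), Ebf1 by -0.50 ± 0.15 (0.0296) and Nhlh1 by -4.29 ± 0.96 (0.00785). Neurod6 changed by -3.84 ± 0.98 (edgeR adjusted p = 0.0152), Neurod2 was at least 21.7-fold lower, and Ebf2 was 221 times as high at E18.5 as at P3 (counting interval 38.9 to 8800). Neurod1 did not pass the test (-0.82 ± 0.40, edgeR adjusted p = 0.17), although both of its P3 plates lay below both E18.5 plates. Ebf1 lost its call without E18.5 plate 1 (0.0903) or plate 2 (0.12) or P3 plate 1 (0.0817) or plate 2 (0.123), Ebf3 without E18.5 plate 1 (0.199) or plate 2 (0.0554) or P3 plate 2 (0.207), and Neurod6 without E18.5 plate 1 (0.0722). P3 plate 2 had 0 counts of Neurod6 and of Nhlh1. With the more glial cells left out, Nhlh1 was no longer called at the same log2 fold change (-4.29, edgeR adjusted p = 0.0782), nor were Neurod6 (-2.21, 0.373) and Neurod2 (0.157), which was at 0 at P3.

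Per cell, the residual expression differed from gene to gene. The share of SGN-like cells with at least 1 count was taken after each cell was thinned to 100000 counts, with Clopper-Pearson 95% intervals that cover counting error only. Ebf1 was found in 96.1% of cells at E14.5 and still in 88.1% (85.0 to 90.8) at P3. Nhlh2 went from 84.3% (76.7 to 90.1) to 24.1% (20.4 to 28.2), Neurod1 from 71.7% (63.0 to 79.3) to 19.3% (15.9 to 23.1) and Ebf3 from 56.7% (47.6 to 65.5) to 33.6% (29.5 to 37.9). Ebf3 was highest in between, with 74.2% of cells at E16.5. Ebf2 went from 35.4% at E14.5 to 8.02% at E15.5 and Nhlh1 from 39.4% to 8.64%, and neither was found in a thinned cell at P3. Neurod2 was found in 0 of 497 cells at P3, which allows a share of up to 0.739%. Unthinned, the P3 shares were 93.6% for Ebf1, 52.1% for Ebf3, 30.3% for Nhlh2 and 24.0% for Neurod1.

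The same shares in glia-like cells, the background of E14.5 to E17.5, were 0.241% to 2.45% for Neurod1, 0.964% to 6.53% for Nhlh2, 2.96% to 11.8% for Ebf1, 0.939% to 8.57% for Ebf3 and 0.723% to 2.46% for Ebf2, over those of these stages with a cell found. Median depths per cell were similar, 228311 to 274742 counts in glia-like and 228326 to 326020 in SGN-like cells of these stages. The Ebf1, Nhlh2, Neurod1 and Ebf3 shares in neurons were above the highest of these E14.5 to E17.5 values at all 6 stages, whereas the Ebf2 shares at E17.5 (1.43%) and E18.5 (2.28%) were not. At E18.5 the glia-like cells numbered 24, of which 18 could be thinned, and their shares were higher for all 5 genes. Ebf1 was found in 77.8% (52.4 to 93.6) of them, Nhlh2 in 38.9% (17.3 to 64.3), Ebf2 in 33.3% (13.3 to 59.0), Ebf3 in 33.3% (13.3 to 59.0) and Neurod1 in 16.7% (3.58 to 41.4). The SGN-like shares of that stage were 94.5%, 54.8%, 2.28%, 62.7% and 30.9%, and at P3 the Nhlh2 share (24.1%) lay below the share in these glia-like cells and that of Ebf3 (33.6%) was level with it. No cell of the P3 plates was named glia-like, so that stage has no such share of its own.

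**Figure D3:**
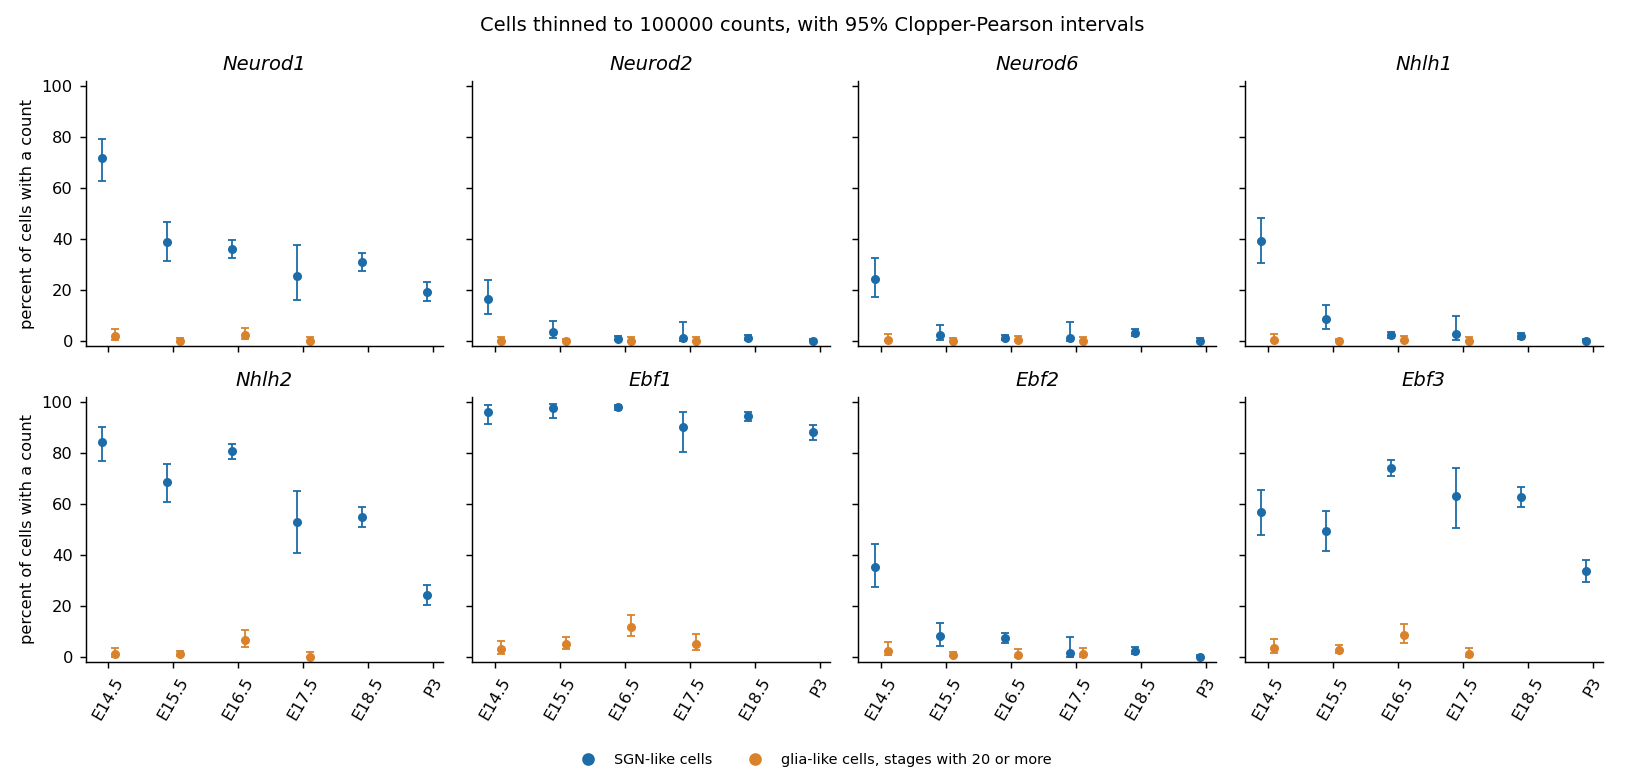
Percent of cells with at least 1 count after thinning to 100000 counts, by stage, in SGN-like and glia-like cells, with 95% Clopper-Pearson intervals. Ebf1 stays at 88.1% of SGN-like cells at P3, while Neurod1 goes from 71.7% to 19.3%.

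Where Neurod1 was still found, there was less of it. In unthinned cells with a count its median level was 496 CPM at E14.5, 45.6 at E15.5 and 20.7 at P3. The median depth of these classes was 265885 counts at E14.5 and 882180 at P3. A single count is thus a lower CPM at P3, and cells with lower levels can enter the median there. Cells at 100 CPM or more were 70 of 130 (53.8%) at E14.5 and 2 of 501 (0.399%) at P3. The median of Ebf1 in cells with a count went from 358 to 62.4 CPM, and cells at 100 CPM or more from 91.5% to 21.0%. A thinned SGN-like cell held a mean of 4.27 of the 10 genes at E14.5, 2.78 at E15.5, 3.02 at E16.5, 2.39 at E17.5, 2.52 at E18.5 and 1.66 at P3. Cells with 6 or more were 32 of 127 (25.2%) at E14.5 and none at P3, where 21 cells (4.23%) had none of the genes. At E14.5 the genes shared cells: 49 of 50 cells with Nhlh1 also had Neurod1, against 42 of 77 without it. Neurod6 was in 17 of 21 cells with Neurod2, against 14 of 106 without it. These are counts of cells from 2 plates and were not tested.

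Within the SGN-like cells of E14.5, Neurod1 was concentrated in a small group. The Unspecialized-like neurons, named from markers of the immature state (19 and 10 cells), held 1740 and 1310 CPM of Neurod1 on the 2 plates (CPM of summed counts without TMM scaling, as in all class values that follow), 182 and 152 of Nhlh1, and 460 and 410 of Nhlh2. The same cells held 566 and 523 CPM of Ebf1, 209 and 175 of Ebf2 and 127 and 120 of Ebf3. At E16.5 the cells named Unspecialized-like had 45.4, 51.6 and 89.1 CPM of Neurod1 and 1.44, 2.33 and 3.62 of Nhlh1. Sub-clusters were made and named stage by stage, so the name need not mark the same kind of cell at both stages. The E14.5 sub-cluster was led by Actc1, Mfap4 and Slco4a1 and that of E16.5 by Hmcn1, Crtac1 and Etv4. Of the other E14.5 clusters, 39 cells led by Vat1l had 500 CPM of Neurod1 and 17 led by Cyp1b1 had 111, and the 41 cells led by Aldh1a3 and Cntn5 had less than either. A further 4 cells led by Th, Prph and Htr3a, with Gata3 at 0 and the sensory genes Prdm12 and Scn10a at 602 and 542 CPM, held 782 CPM of Ebf1 and 368 of Ebf2, and gave 16.1% of the Ebf2 counts of that stage.

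Type I SGNs, which contact inner hair cells, divide into Ia, Ib and Ic, and type II contact outer hair cells. At E16.5, Ic-like cells were set against the Ia/Ib/II-like group on the 3 plates, where 7 of the 10 genes passed the filter. Ebf1 was 312, 318 and 210 CPM in Ic-like cells against 150.97, 147 and 91.9, with no overlap and a log2 fold change of 1.12 ± 0.23 (edgeR adjusted p = 0.0481; 1.66% of 14315 genes were higher). Neurod2 and Neurod6 were also higher, with 342 counts against 0 (at least 221-fold, edgeR adjusted p = 0.0137) and 609 against 1 (ratio 1180, counting interval 211 to 46700; adjusted p = 0.00485). Both passed the filter through the Ic-like cells. Over all E16.5 SGN-like cells, 330 of 366 Neurod2 counts lay in 5 cells with no Isl1 and no Gata3 count. For Neurod6, 579 of 632 counts lay in 5 such cells, which are described below. Neurod1 (22.9, 25.7 and 17.4 against 8.76, 9.02 and 11.9 CPM; 1.18 ± 0.31, edgeR adjusted p = 0.116) and Ebf2 (3.84 ± 0.98, 0.106) did not pass, and DESeq2 called both (adjusted p = 0.00202 and 0.000292). Leaving out 1 plate ended the 3 calls: without plate 1 and plate 2 the adjusted p was 0.297 and 0.335 for Ebf1, 0.212 and 0.231 for Neurod2, and 0.0864 and 0.187 for Neurod6. Without plate 3, Neurod1 (1.46, edgeR adjusted p = 0.000976), Ebf2 (3.7, 0.000731) and Nhlh2 (0.41, 0.042) were called as well. With the plate as a replicate block, which pairs classes of the same plate, Neurod2 lost its call (0.1), and Ebf1 (1.13, 0.0122) and Neurod6 (0.0197) kept theirs. Glial markers summed to 943 to 1490 CPM in Ic-like cells and 38.5 to 270 in the others, and their part in these differences was not tested.

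The Neurod2 and Neurod6 counts of the later stages sat in very few cells. Of the 2311 SGN-like cells, 16 had no count of Isl1 and none of Gata3, factors found in SGNs, and this group was defined after the data had been examined. They carried 586 of 1067 Neurod2 counts (54.9%) and 949 of 2330 Neurod6 counts (40.7%). At E15.5 and E16.5 the 13 such cells of 949 held 87.9% and 89.7%, with 138 CPM of Neurod2 against 0.249 in the other cells and 245 CPM of Neurod6 against 0.367. The same 13 cells carried 201 of 210 counts of Zic1, 982 of 1258 of Pax6 and 1232 of 1601 of Nfix, and less Eya1 (52.6 against 401 CPM). Without the cells lacking Isl1 and Gata3, Neurod2 and Neurod6 kept 8.36% and 4.12% at E15.5, so both were then under 10% at that stage, and neither passed the filter in the Ic-like comparison. Neurod2 then lost its calls against E14.5 at E16.5, where its log2 fold change was larger than over all cells (-4.61 against -2.89, edgeR adjusted p = 0.0793), and at E17.5 (0.216). Neurod6 lost its call at E17.5 (0.0892) and Nhlh1 at E15.5 (-3.11, 0.0546), while Ebf3 gained one at E15.5 (-1.06, edgeR adjusted p = 0.0457). From E18.5 to P3, Neurod2 (0.0808) and Neurod6 (-3.86, edgeR adjusted p = 0.12) were no longer called. Ebf3 then kept 49.2% at E15.5 and Ebf1 remained higher in Ic-like cells (1.13, edgeR adjusted p = 0.047).

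Ebf1 remained highest in Ic-like cells at E18.5, at 304 and 297 CPM against 69.2 and 74.9 in Ia-like, 131 and 138 in Ib-like and 82.7 and 81.5 in II-like cells. By P3 the Ic-like cells had 92.7 and 78.9 CPM, against 71.9 and 70.4, 51.0 and 49.1, and 65.5 and 72.1 in the others. A P3 sub-cluster led by Espn, Pou4f1 and Mgat4c was left unnamed and is in none of these classes. It held 78.9 CPM of Ebf1 with the P3 plates pooled. Neurod1 at E18.5 was 43.2 and 49.9 CPM in Ic-like and 44.7 and 36.7 in Intermediate cells, against 3.15 and 3.10 in Ia-like and 9.31 and 8.45 in Ib-like cells. These levels are a description and were not tested between the type I classes.

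II-like cells were tested against the Ia-, Ib- and Ic-like cells together (type I-like) on both E18.5 plates and P3 plate 1. In this comparison 5 genes passed the filter. Intermediate and unnamed cells were in neither class. Among them was the P3 sub-cluster led by Espn, Pou4f1 and Mgat4c. With the P3 plates pooled it held 12.3 CPM of Neurod1, against 4.19 in Ic-like cells. The comparison with these cells added to type I was not tested. Neurod1 was lower in II-like cells, at 0.935, 0.333 and 1.17 CPM against 10.5, 11.9 and 4.61 (-3.43 ± 0.58, edgeR adjusted p = 0.0136; 5.87% of 14713 genes were lower). This call was lost without E18.5 plate 1 (-3.45, 0.17) or plate 2 (-2.81, 0.114). Ebf3 was 35.3, 33.2 and 62.2 CPM in II-like cells against 22.8, 18.8 and 8.10, without overlap and without passing the test (1.35 ± 0.41, edgeR adjusted p = 0.0827), and Ebf1 was just outside the threshold (-0.51 ± 0.13, 0.0505). DESeq2 called both (adjusted p = 0.00674 for Ebf3 and 0.0145 for Ebf1). Without P3 plate 1, Ebf1 (0.0068) and Ebf3 (0.67, 0.0457) were called. Glial markers summed to 3150 to 6170 CPM in II-like and 2870 to 3010 in type I-like cells, and their part was not tested.

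**Figure D4:**
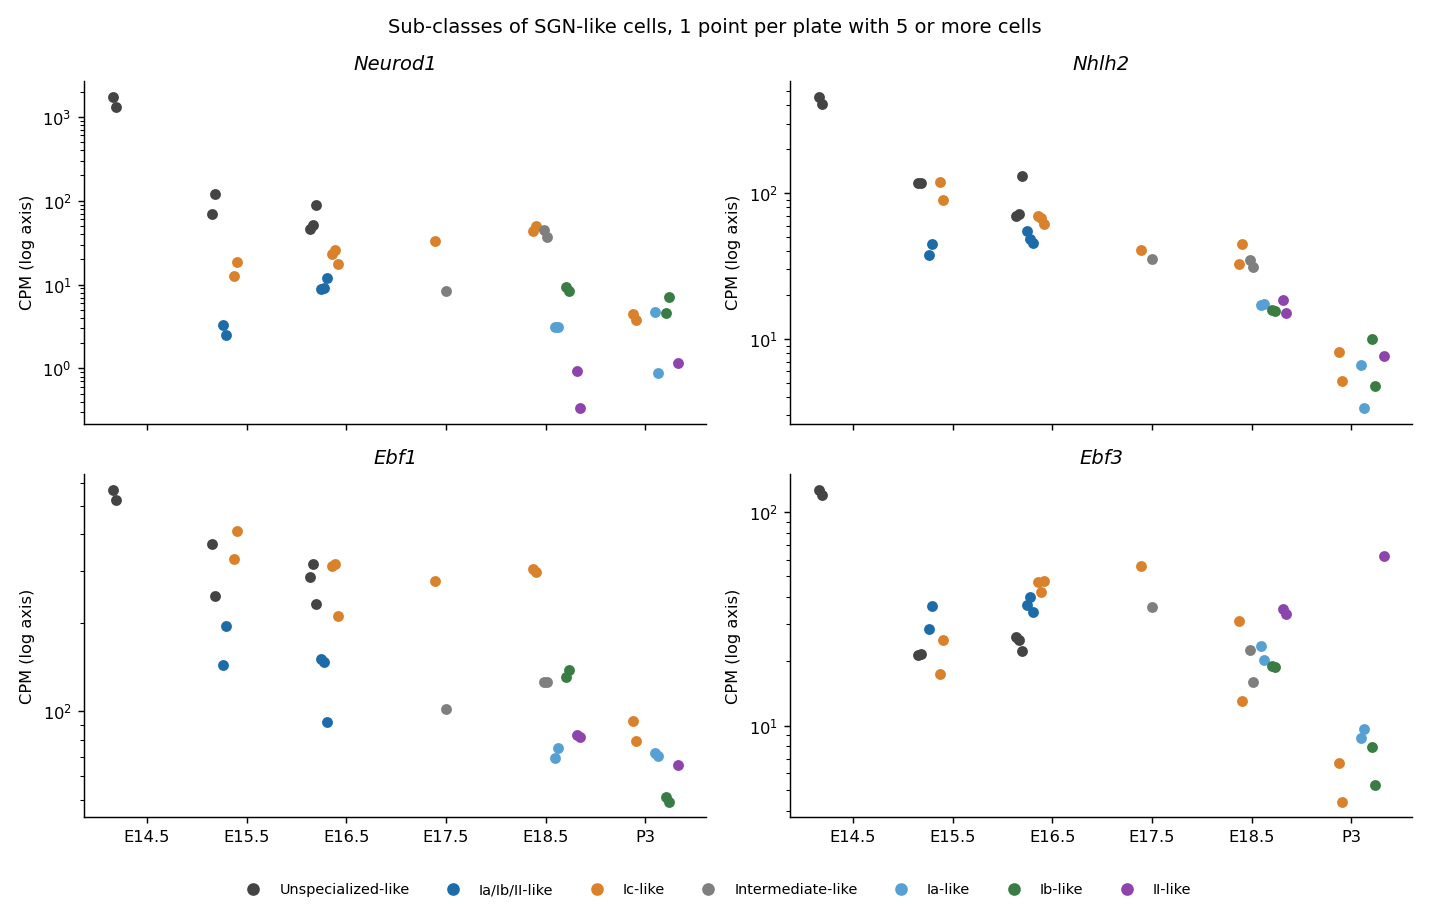
Level of Neurod1, Nhlh2, Ebf1 and Ebf3 in CPM by neuronal sub-class and stage, for plates with at least 5 cells of that sub-class. Unspecialized-like cells of E14.5 hold the most Neurod1 (1740 and 1310 CPM), and Ic-like cells the most Ebf1 at E18.5 (304 and 297 CPM).

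In glia-like and OM-like cells the Neurod and Nhlh genes were low and the Ebf genes were divided. On the 6 SS2_20 plates, 6 of the 10 genes passed the filter in glia-like against SGN-like cells and all 6 were lower in glia (31.1% of 14052 genes were lower). The median glia-like plate held 0.246 CPM of Neurod1, 0.0189 of Nhlh1 and 0 of Nhlh2. Those genes passed the filter mainly through the SGN-like cells, so the count of lower genes is a description. Neurod1 had a lowest, median and highest plate of 0, 0.246 and 2.5 CPM in glia-like and 13.7, 45.0 and 684 CPM in SGN-like cells. Ebf1 had 0.29, 2.94 and 4.75 CPM against 141, 292 and 443. Neither gene overlapped between the classes. The log2 fold change was -8.0 ± 0.50 for Neurod1 (edgeR adjusted p = 6.33e-07), -8.29 ± 1.07 for Nhlh2 (8.49e-05) and -6.58 ± 0.59 for Ebf1 (6.98e-06). Ebf3 changed by -4.86 ± 0.39 (edgeR adjusted p = 3.17e-06), Nhlh1 by -7.72 ± 1.35 (0.000655) and Ebf2 by -3.21 ± 1.09 (0.0259). The Ebf2 call was lost without E14.5 plate 2 (-2.68, 0.101) or E15.5 plate 2 (-3.15, 0.062).

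In OM-like cells, connective tissue of the ear, Ebf2 was the one gene of the 7 tested that was higher than in neurons (27% of 13713 genes were higher). Its lowest, median and highest plates were 107, 205 and 264 CPM in OM-like and 1.08, 6.93 and 108 CPM in SGN-like cells. Ebf1 had 236, 344 and 403 CPM in OM-like against 141, 292 and 443 CPM in SGN-like cells. Ebf2 was higher by 4.43 ± 0.90 (edgeR adjusted p = 0.00223), with the lowest OM-like plate at the level of the highest SGN-like plate. Ebf1 did not pass the test (0.35 ± 0.23, edgeR adjusted p = 0.219), and Ebf3 was lower (-0.98 ± 0.25, 0.00855). Neurod1 (-10.23 ± 1.17, edgeR adjusted p = 6.05e-05), Nhlh2 (-8.31 ± 1.13, 0.000188), Nhlh1 (-6.58 ± 1.91, 0.0155) and Neurod2 (-5.99 ± 1.98, 0.0272) were lower too, so that 5 were lower in all (25.8% of all genes). The median OM-like plate held 0.0653 CPM of Neurod1, 0.076 of Nhlh2 and 0 of Nhlh1 and Neurod2. These bHLH genes passed the filter mainly through the SGN-like cells, so the count is a description. Neurod2 lost its call without E14.5 plate 1 (0.0888), E14.5 plate 2 (0.104) or E16.5 plate 3 (0.0708), and Nhlh1 without E14.5 plate 2 (0.0648). Without E15.5 plate 1 the Nhlh1 value was -10.76. Under the cell filter of the Reporting Summary, which asks for more counts and genes and allows more ERCC, Ebf2 missed the threshold (3.56, 0.0537).

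HC-like cells of E18.5 carried Ebf1, Nhlh1 and Neurod6. The 2 plates, with 37 and 32 such cells, had 259 and 248 CPM of Ebf1, 36.9 and 43.5 of Nhlh1, and 43.0 and 21.5 of Neurod6. Against SGN-like cells of those plates, Nhlh1 was higher by 7.13 ± 0.22 (edgeR adjusted p = 4.92e-05), Neurod6 by 5.41 ± 0.49 (0.000752) and Ebf1 by 1.11 ± 0.10 (0.000693), 3 of 7 genes tested (27.7% of 16127 genes were higher). Neurod1 (0 and 0.699 CPM; -5.31 ± 0.85, edgeR adjusted p = 0.00496) and Nhlh2 (0 and 0.873 CPM; -5.59 ± 0.81, 0.00346) were lower (29.2%). Both were at 0 on HC-like plate 1, so they passed the filter through the SGN-like cells. Ebf3 (-1.07 ± 0.36, edgeR adjusted p = 0.052) and Ebf2 (-0.43 ± 0.82, 0.675) did not pass, and DESeq2 called Ebf3 lower (-1.03, adjusted p = 0.0264). The HC-like cells fell into 2 clusters. On the E18.5 plates 1 cluster (24 and 18 cells) held 52.1 and 31.7 CPM of Neurod6, 41.3 and 54.1 of Nhlh1 and 308 and 303 of Ebf1. The other (13 and 14 cells) held 24.2 and 7.78 CPM of Neurod6, 27.9 and 29.3 of Nhlh1 and 160 and 173 of Ebf1. The study set vestibular apart from cochlear hair cells, which was not done here. After thinning, Nhlh1 was found in 54 of 69 HC-like cells (78.3%, interval 66.7 to 87.3) and Neurod6 in 21 (30.4%, 19.9 to 42.7). HC markers summed to 9280 to 10300 CPM in these cells, against 246 to 247 in SGN-like cells, and neuronal markers to 1710 to 2170. These are cells of 2 plates of 1 stage and 1 series.

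**Figure D5:**
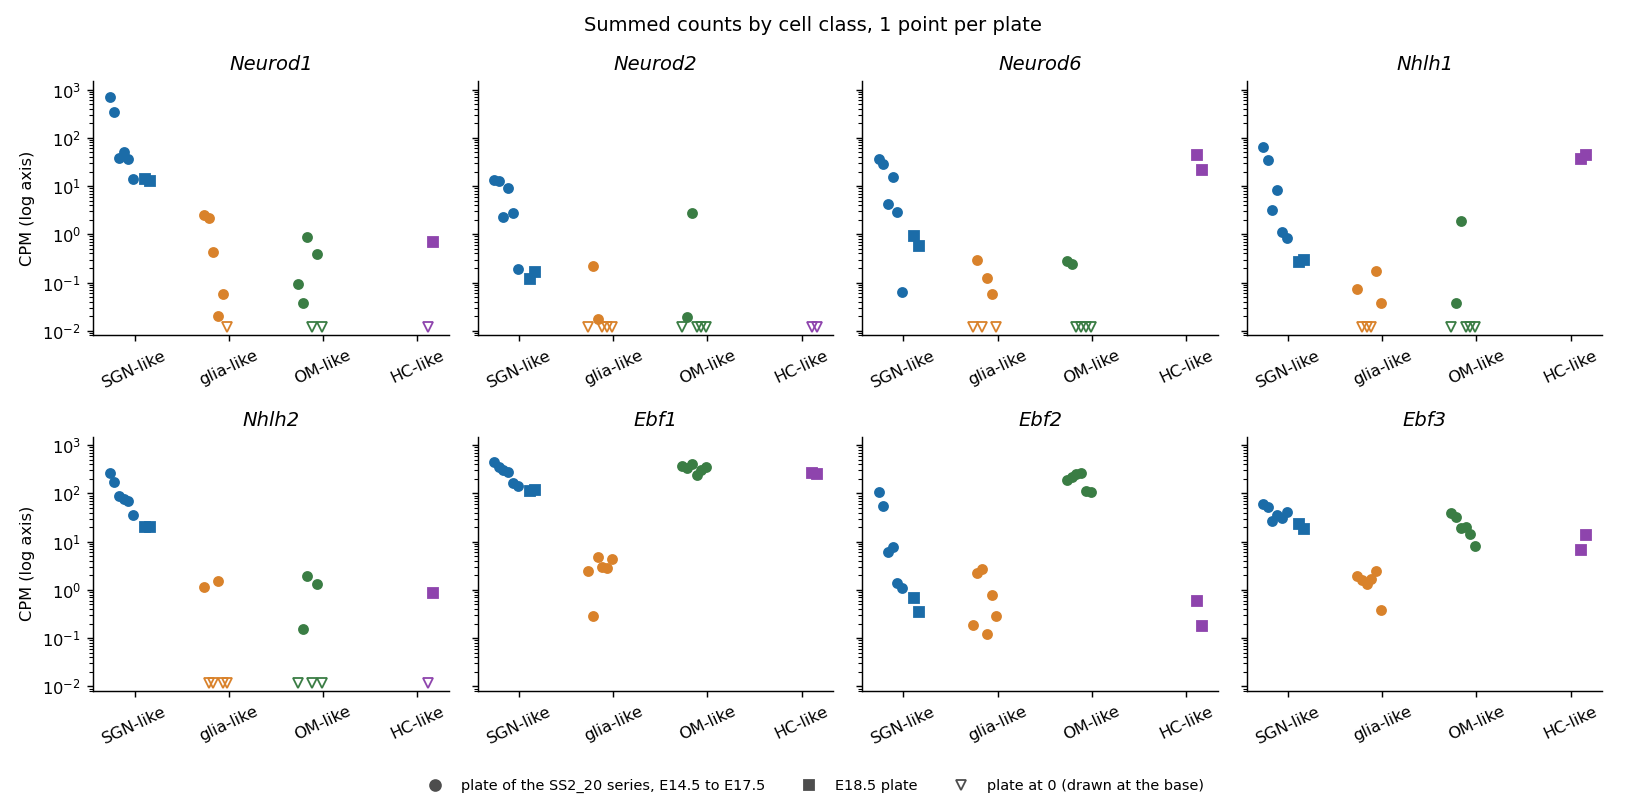
Level of 8 of the genes in CPM, on a log axis, in SGN-like, glia-like, OM-like and HC-like cells, 1 point per plate (circles, SS2_20 plates of E14.5 to E17.5; squares, E18.5 plates). Ebf2 has its highest plates in OM-like cells (up to 264 CPM), and the E18.5 HC-like plates hold Nhlh1 at 36.9 and 43.5 CPM.

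The genes with the most similar course over the 12 plates were named by the correlation of log levels in SGN-like cells, given as a description since plates share stage and series. For Nhlh2 they were Rgs4 (r = 0.995), Rapgef6 (0.991) and Eml1 (0.99), for Neurod1 Chst8 (0.991), Gpr56 (0.985) and Stt3b (0.983), and for Ebf1 Dcbld2 (0.987), Uhrf2 (0.982) and Tbc1d9 (0.982). For Ebf2 they were Zfp664 (0.988), Nnat (0.98) and Cbx2 (0.979), for Ebf3 Nedd4l (0.975), Elmsan1 (0.968) and Ubn2 (0.966), and for Nhlh1 Adam11 (0.988) and Igdcc3 (0.978). For Neurod2 they were Dusp4 (0.981), Chst1 (0.978) and D930015E06Rik (0.977), and for Neurod6 Eda2r (0.977), Sh3kbp1 (0.976) and Ptma (0.975). Those of Neurog1 (Vmn2r58, Olfr1447 and Adig) and Neurod4 (Gcsam, Serpinb2 and Il1rapl2) were themselves near 0, with 0.48 CPM as their highest stage mean. Rgs4 and Gpr56 are on the list that named the Unspecialized-like cells. Among the 10 genes, Nhlh2 followed Ebf2 (0.975) and Ebf1 (0.971), and Neurod1 followed Nhlh1 (0.94).

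The wider pathway was examined in 92 genes in 10 lists, of which 87 were tested at E18.5 against E14.5. Of these, 27 were lower (9.61% of all genes) and 18 higher (14.1%), with a median of -0.34 against 0.1. Of the 3 E proteins, the partners of the proneural factors, 1 fell, Tcf3 (86.7 and 91.4 to 43.9 and 42.5 CPM; -1.04 ± 0.17, edgeR adjusted p = 0.00157). Of the 4 Id genes, which hold E proteins away from DNA, Id4 fell (-1.11, edgeR adjusted p = 0.000675) and Id3 rose (1.64, 0.000299). Of 11 other class II bHLH genes tested, 1 fell, Msc (176 and 177 to 10.5 and 11.9 CPM; -3.98 ± 0.69, edgeR adjusted p = 0.00224). Of the 3 Ebf relatives and partners, Zfp423 fell (-1.05, edgeR adjusted p = 0.00242) and Zfp521 rose (0.91, 0.000916).

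Among 19 neurogenic zinc finger, Sox and cofactor genes, 9 fell and 2 rose, with a median of -0.67, including St18 (83.9 and 53.4 to 0.78 and 1.38 CPM; -5.98, edgeR adjusted p = 7.2e-05) and Insm1 (78.2 and 36.8 to 6.14 and 3.34 CPM; -3.6, 0.00105). Sox2, a factor of neural progenitors and glia, rose from 0.0563 and 0.0613 CPM, 1 count on each plate, to 25.4 and 20.3 CPM (edgeR adjusted p = 0.000787). Of 11 regulators of otic neurons 7 fell, among them Eya2 (-4.87, edgeR adjusted p = 0.000383), and Prox1 (2.16, 1.52e-05) and Pou4f2 (1.68, 0.00167) rose. Of 10 immature neuron genes 6 fell, by most in Tubb2b (-1.62, edgeR adjusted p = 0.000467), Elavl3 (-1.35, 0.000205) and Nnat (-1.16, 4.09e-05). Of 7 mature neuron genes 5 rose, by most in Nefh (2.95, edgeR adjusted p = 1.69e-06), Slc17a7 (1.67, 0.001) and Grin1 (1.37, 0.00459). In the Delta and Notch list, 1 of 11 fell, Mfng (86.5 and 60.5 to 1.9 and 1.67 CPM; -5.36, edgeR adjusted p = 4.17e-05), and Notch1 (3.39, 0.00661), Notch2 and Notch3 (2.45, 0.0122) rose. Of 8 Hes and Hey repressors, which oppose proneural genes, 4 rose and none fell, and Hey2 (5.41, edgeR adjusted p = 0.00161), Hes1 (5.3, 0.0026) and Heyl (3.33, 0.00262) rose most. With the more glial cells left out, Hey2 (2.48, edgeR adjusted p = 0.244), Hes1 (2.25, 0.177), Heyl (1.63, 0.501), Notch1 (0.46, 0.614) and Notch3 (2.99, 0.099) were no longer called, whereas Sox2 was (0.00518). The cells kept reach up to their plate's median in glial markers. That median was 3730 and 4030 CPM per cell on the E18.5 plates, against 3.1 and 0 at E14.5. Glial counts can thus remain in the kept cells, also for the Sox2 call. Of the 92 list genes, 14 are among those the study removed as glial, and 0 of the 10 genes are. The part of the glial markers in these rises was not tested. The lists were compiled with earlier results of these data known, and their counts are a description.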

How the data were processed

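The authors deposited 1 table of raw read counts per gene and well, whole numbers with no molecular identifiers. Per the labels and methods, single-end reads were aligned to mm10 with STAR, uniquely mapped reads were counted with featureCounts and Scanpy was used downstream. The strand setting is not given in the sources used here. Of 4992 wells, 384 belong to 1 plate with no sample and were not used. The study's filter (over 1000 genes, under 5% ERCC spike-in counts) left 4226 of 4608 wells, and the design text states 135 cells for the Ntrk3Cre driver and 2139 in total for PVcre, while the cells it lists for PVcre from E15.5 to E18.5 add up to 1629. Depth per plate over kept cells was 80997594 to 303906928 counts, and 0 pairs of cells were identical.

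Cells were clustered in scanpy 1.11.5 (2000 variable genes, 30 components, 30 neighbours, Leiden resolution 1) and named from markers, with no doublet caller, so doublets may be present among cells that hold markers of 2 classes. The sub-cluster naming rule was changed after a look at the cluster tables, ahead of the tests. Counts were summed per plate and class (at least 5 cells, or 3 for HC-like cells) and tested with edgeR 4.0.16 (R 4.3.3; TMM, filterByExpr, quasi-likelihood test, Benjamini-Hochberg adjusted p under 0.05 over all genes tested). All stages entered 1 fit. DESeq2 1.42.0 and limma 3.58.1 (log2 of mean CPM plus 1) were alternatives, and the pipeline was tested on simulated data. The 10 genes and the pathway lists were chosen with earlier results of these data known. All 10 are named, with up to 3 genes of each list with the largest change among those called at E18.5 against E14.5, and for each of the 10 the 3 genes with the highest Pearson r over the 12 plates, of which 1 is not reported here. Other list genes and the genes leading a cluster were named after their values were seen. Replicate numbers follow accession order and pair nothing between stages, whereas classes of 1 plate share its animals and are paired by design (correlation of deviations 0.00237 to 0.195), so the plate was also fitted as a replicate block. Read counts are not independent molecules, so intervals and floors cover counting error only.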

Additional observations from a re-analysis of the deposited data

How the results depend on the processing

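Of 385 alternative values of the main comparisons, 343 stayed within the limits set for the reported ones and 42 moved, and 0 reversed. Leaving out 1 plate at a time, the number of the 10 genes called lower against E14.5 ranged from 3 to 5 at E15.5, 6 to 8 at E16.5, 7 to 7 at E17.5, 8 to 9 at E18.5 and 8 to 9 at P3. The same range was 0 to 3 from E15.5 to E16.5, 0 to 0 at the next steps and 4 to 7 from E18.5 to P3. It was 5 to 8 lower in glia-like cells, 3 to 6 lower and 1 to 1 higher in OM-like cells, 0 to 0 lower and 0 to 6 higher in Ic-like cells, and 0 to 3 lower and 0 to 1 higher in II-like cells. For the pathway lists it was 23 to 30 lower and 15 to 20 higher. Genes under 50% at E15.5 ranged from 6 to 7, and those under 10% from 5 to 5 at E16.5, 6 to 8 at E18.5 and 8 to 8 at P3. The counts at E18.5 and P3 were taken over all 10 genes. They thus include Neurod4, which was left out of the order above and was at 0 at P3. Leaving out plates was not run for HC-like cells, where it leaves 1 plate in each class.

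From E15.5 to E16.5 the count of 2 became 0 in the SS2_20 plates alone, with more glial cells left out, and with limma. DESeq2 gave 1 gene from E16.5 to E17.5 and 1 from E17.5 to E18.5. From E18.5 to P3 the count of 7 became 4 with more glial cells left out and 3 with limma. DESeq2 added Ebf1 and Ebf3 at E15.5 and Ebf3 at E16.5 against E14.5. Under the Reporting Summary filter, Ebf2 in OM-like cells left 0 genes higher. In Ic-like cells DESeq2 called 5 genes higher, and 1 was called without the cells lacking Isl1 and Gata3, an alternative chosen after seeing the data. In II-like cells 2 genes were lower with DESeq2, without the count filter, under the Reporting Summary filter and at Leiden resolution 2, and 1 was higher with DESeq2 and without the filter. The mean number of the 10 genes per cell, unthinned and thinned to 50000 counts, was 2.88 and 2.51 at E15.5, 2.57 and 2.09 at E17.5, 2.94 and 2.11 at E18.5 and 2.01 and 1.4 at P3, and 2.7 at E16.5 when thinned to 50000. The cause of these differences was not tested.

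Over all genes, DESeq2 called 2574 where edgeR called 1085 at E15.5 against E14.5, 4194 against 2708 at E16.5 and 3665 against 2232 at E17.5. From E15.5 to E16.5 it called 1544 against 399 (602 without the count filter), from E16.5 to E17.5 581 against 23 (92) and from E17.5 to E18.5 1615 against 364 (593). In Ic-like cells it called 1061 against 416 and in II-like cells 2952 against 1604. With the plate as a replicate block, II-like cells had 945 calls over all genes, and among the 10 genes the block changed the call of Neurod2 in Ic-like cells alone (adjusted p = 0.1), with 6 genes lower in glia-like cells, 5 lower and 1 higher in OM-like, 2 lower and 3 higher in HC-like, 2 higher in Ic-like and 1 lower in II-like cells. Depth limits Neurog1 and Neurod4, which had at most 47 counts in a stage.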
